A study of Mus musculus with 14 samples.

Results

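All 7 Tert+ libraries of the series were compared with all 7 Tert- libraries, in 1 model that held radiation as an additive term, so that each gene received a single population difference over both radiation states. The comparison used 14 of the 14 libraries and was not chosen on measured values. Sorted cells of a salivary gland, the submandibular gland, came from adult TertCreERT2/+ Rosa26LSL-tdTomato/+ mice. The groups were Tert+ after 15 Gy of radiation (RT, 4 libraries), Tert+ with no RT (3 libraries), Tert- after RT (4 libraries) and Tert- with no RT (3 libraries). All mice of all groups carried the same alleles: a tamoxifen-inducible Cre in 1 copy of Tert, and in Rosa26 a tdTomato reporter that is silent until Cre removes a stop cassette. Tert+ cells were sorted as tdTomato-positive and Tert- cells as tdTomato-negative, both from live EpCAM-positive cells, and the labels also call them TertHigh and TertLow. The reporter records Cre activity at the Tert locus under tamoxifen and not Tert RNA at the time of sorting. The labels give no interval between RT and sorting. They also do not tie replicates to individual animals, so each p-value reflects only how these libraries vary, which may be technical. The direction rests on the sample titles and descriptions: a further label for the cell type states the opposite population in 14 of 14 libraries.

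Tert encodes the catalytic subunit of telomerase, which adds telomere repeats to chromosome ends, and Cre at this locus is used to mark rare, self-renewing cells in epithelia. Salivary glands also house resident immune cells. Tissue macrophages depend on the receptor Csf1r, make the complement component C1q, and take up dying cells through receptors such as Axl and the integrin alphav-beta5, after which lysosomal enzymes and lipid carriers such as Apoe process the cargo. PU.1, a transcription factor of macrophages and B cells, acts at many of their promoters and enhancers and recognises a purine-rich core.

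Of 15915 genes tested, 9 fell in Tert+ libraries and 0 rose at an adjusted p under 0.05 (edgeR quasi-likelihood test with Benjamini-Hochberg adjustment), which is 0.0566% and 0% of the genes tested. Among the 9 were Aif1, Itgb5, Lhfpl2, Axl, Fam149a, Ch25h, Apoe and Ms4a7. The median log2 fold change over all genes tested was -0.000529. By sign alone, 7966 genes were lower and 7949 higher in Tert+. At an unadjusted p under 0.05 there were 709 genes lower and 573 higher in Tert+, or 4.45% and 3.6% of those tested. The count of risers was 41 with DESeq2 and 3 with limma voom, which also called 112 and 32 genes lower. In edgeR it was 5 when either Tert+ no RT replicate 1 or Tert- no RT replicate 1 was left out. The count of genes lower was 30 without Tert- RT replicate 4.

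**Figure D1:**
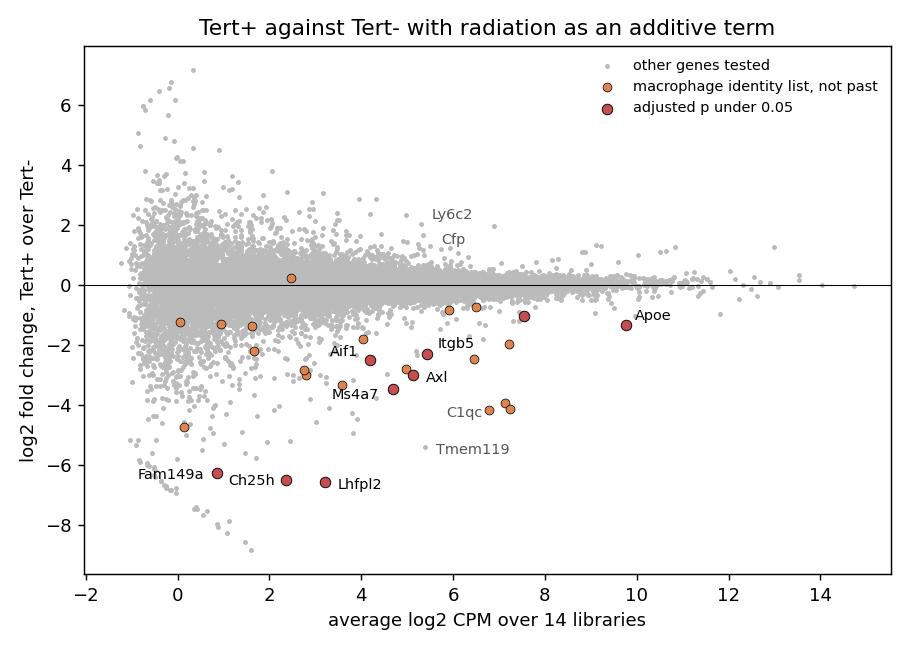
Log2 fold change of Tert+ over Tert- (vertical axis) against average log2 CPM, counts scaled to library size (horizontal axis) for the 15915 genes tested. Red points passed an adjusted p of 0.05, orange points are the other members of the macrophage complement and identity list, and all 9 red points lie below 0.

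The first 250 bases upstream of the start site are shown for the 3 of these genes whose window holds GAGGAA, the core that PU.1 binds, on either strand. Whether the 9 genes share a regulator was not tested. The sequences are those of RefSeq on GRCm38.p6, written 5′ to 3′ on the gene's own strand up to the base before the start. The capitals mark the core or, where it lies on the other strand, its reverse complement TTCCTC.
Aif1 promoter, chr17:35176053-35176302, minus strand: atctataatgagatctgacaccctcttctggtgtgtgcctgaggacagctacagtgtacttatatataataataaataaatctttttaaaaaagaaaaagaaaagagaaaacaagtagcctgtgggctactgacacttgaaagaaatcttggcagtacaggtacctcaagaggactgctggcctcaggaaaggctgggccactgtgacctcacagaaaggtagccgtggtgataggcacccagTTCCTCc
Axl promoter, chr7:25788734-25788983, minus strand: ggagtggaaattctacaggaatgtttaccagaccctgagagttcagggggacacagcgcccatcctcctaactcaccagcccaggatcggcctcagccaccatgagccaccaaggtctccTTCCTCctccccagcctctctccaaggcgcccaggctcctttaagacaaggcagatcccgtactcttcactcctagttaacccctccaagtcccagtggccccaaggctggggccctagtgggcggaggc
Apoe promoter, chr7:19699189-19699438, minus strand: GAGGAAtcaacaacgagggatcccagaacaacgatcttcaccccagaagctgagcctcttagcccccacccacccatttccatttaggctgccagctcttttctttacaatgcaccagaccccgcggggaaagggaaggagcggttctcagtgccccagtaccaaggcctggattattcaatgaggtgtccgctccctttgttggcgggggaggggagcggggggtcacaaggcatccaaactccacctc
The core began 7 bases upstream of the start of Aif1 on the reverse strand, 130 bases upstream of Axl on the reverse strand, and 250 bases upstream of Apoe on the forward strand, at the edge of its window. RefSeq windows were at hand for 8 of the 9 genes, and 3 of the 8 held the core, against 23.3% of 32851 windows of the same length. These letters were not found in the windows of Ch25h, Fam149a, Itgb5, Lhfpl2 and Ms4a7. A match is a run of letters and not a measured binding site.

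Aif1 (ENSMUSG00000024397, chromosome 17, 35170991 to 35176068 on mm10), the actin-binding protein IBA1 that is widely stained as a marker of macrophages and microglia, had the smallest p-value. It stood at 3.31, 4.53, 7.91 and 3.42 CPM (counts scaled to 1000000 per library) in Tert+ RT libraries and 5.13, 8.91 and 3.11 CPM in Tert+ no RT libraries. It stood at 32.8, 18.0, 26.1 and 9.84 CPM in Tert- RT libraries and 54.5, 32.8 and 42.2 CPM in Tert- no RT libraries. Every Tert+ library lay below every Tert- library, the closest being Tert+ no RT replicate 2 and Tert- RT replicate 4. It fell by 2.50 on the log2 scale (SE 0.333, adjusted p = 0.00688).

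Of the receptors for dying cells, Axl (ENSMUSG00000002602, chromosome 7, 25757273 to 25788705), a receptor tyrosine kinase that binds phosphatidylserine on dying cells through Gas6, stood at 7.06, 4.36, 12 and 2.65 CPM in Tert+ RT and 7.70, 4.49 and 7.59 CPM in Tert+ no RT libraries. In Tert- libraries it stood at 41.2, 33.5, 34.8 and 12 CPM after RT and 149, 84.3 and 87.9 CPM without RT. The lowest Tert- library, RT replicate 4, was level with the highest Tert+ library, RT replicate 3, and the others did not overlap. Axl fell by 3.01 on the log2 scale (SE 0.417, adjusted p = 0.00688). Itgb5 (ENSMUSG00000022817, chromosome 16, 33829665 to 33949338), the beta subunit of the alphav-beta5 integrin, ran from 6.83 to 18.4 CPM in Tert+ libraries (median 12.8) and from 18.2 to 141 CPM in Tert- libraries (median 55.9). It fell by 2.31 on the log2 scale (SE 0.314, adjusted p = 0.00688), with 1 overlapping pair, Tert+ no RT replicate 1 and Tert- RT replicate 4. The alphav partner Itgav averaged 29.0 CPM in Tert+ and 31.9 CPM in Tert- libraries (log2 fold change -0.14, adjusted p = 0.944), and Gas6, the ligand of Axl, 23.9 CPM in Tert+ and 33.8 CPM in Tert- libraries (log2 fold change -0.49, adjusted p = 0.837). Itgav and Gas6 were picked with their values known.

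Lipid genes followed. Apoe (ENSMUSG00000002985, chromosome 7, 19696109 to 19699188), a lipid carrier that macrophages secrete, ran from 303 to 757 CPM in Tert+ libraries (median 456) and from 821 to 1770 CPM in Tert- libraries (median 1285), without overlap. It fell by 1.35 on the log2 scale (SE 0.23, adjusted p = 0.0426). Ch25h (ENSMUSG00000050370, chromosome 19, 34473786 to 34475135), which makes 25-hydroxycholesterol, had 0 counts in 6 of 7 Tert+ libraries and 0.819 CPM in Tert+ RT replicate 3. In Tert- libraries it stood at 7.62, 7.52, 11.2 and 0.518 CPM after RT and 18.3, 7.95 and 15.5 CPM without RT. Summed over libraries it had 6 reads in Tert+ and 678 reads in Tert- (log2 fold change -6.50, SE 1.11, adjusted p = 0.0426).

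Another 3 genes encode membrane proteins or are little described. Lhfpl2 (ENSMUSG00000045312, chromosome 13, 94057796 to 94195409), a tetraspan membrane protein, had no read in the 4 Tert+ RT libraries and in 2 of the 3 Tert+ no RT libraries, and 1.83 CPM in Tert+ no RT replicate 1. It had 12.2, 10.2, 8.86 and 2.85 CPM in Tert- RT libraries and 34.7, 29.2 and 26.5 CPM in Tert- no RT libraries. The sums were 15 reads in Tert+ and 1303 reads in Tert- (log2 fold change -6.58, SE 0.894, adjusted p = 0.00688), and the ranges did not overlap. Fam149a (ENSMUSG00000070044, chromosome 8, 45336717 to 45382291) had 3 reads in 1 Tert+ library and 0 in the other 6, against 222 reads over the 7 Tert- libraries. The exact 95% counting interval of its fold ran from 27.6-fold to 399-fold lower in Tert+ (adjusted p = 0.0119), and the gene lay below the expression level set for naming, so it was chosen after its values were seen. Intervals from counts describe counting error alone, as reads lacking molecular identifiers cannot be taken as separate molecules. The fitted fold changes of Lhfpl2, Fam149a and Ch25h, with 6 Tert+ libraries at 0 each, depend on the prior count of the fit.

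Ms4a7 (ENSMUSG00000024672, chromosome 19, 11321039 to 11336146), a 4-span membrane protein of macrophages, stood at 9.85, 5.33, 6.82 and 8.98 CPM in Tert+ RT libraries and 1.34, 0.379 and 2.28 CPM in Tert+ no RT libraries. It stood at 59.3, 37.4, 33.9 and 10.3 CPM in Tert- RT libraries and 55.1, 59.0 and 71.6 CPM in Tert- no RT libraries. All Tert+ libraries lay below all Tert- libraries, with Tert- RT replicate 4 the closest. It fell by 3.47 on the log2 scale (SE 0.598, adjusted p = 0.0428). Ms4a7, Apoe and Ch25h were near the threshold: leaving out each of the 14 libraries in turn left Ms4a7 past it in 4 fits, Apoe in 6 and Ch25h in 2. Ms4a7 stayed past it without Tert+ no RT replicate 2, Tert- no RT replicate 1, Tert+ RT replicate 1 or Tert- RT replicate 4. Apoe stayed past it without Tert- no RT replicate 1, without replicate 1 or 4 of Tert+ RT, or without replicate 2, 3 or 4 of Tert- RT, and Ch25h without Tert+ RT replicate 3 or Tert- RT replicate 4. Over all 24 alternatives, their adjusted p-values reached up to 0.167, 0.138 and 0.12. Aif1, Itgb5, Lhfpl2, Axl and Fam149a passed in 14 of 14 fits that left out a library. Of the 10 other alternatives Fam149a passed in 9, with an edgeR adjusted p of 0.0554 where same-numbered libraries formed a block.

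**Figure D2:**
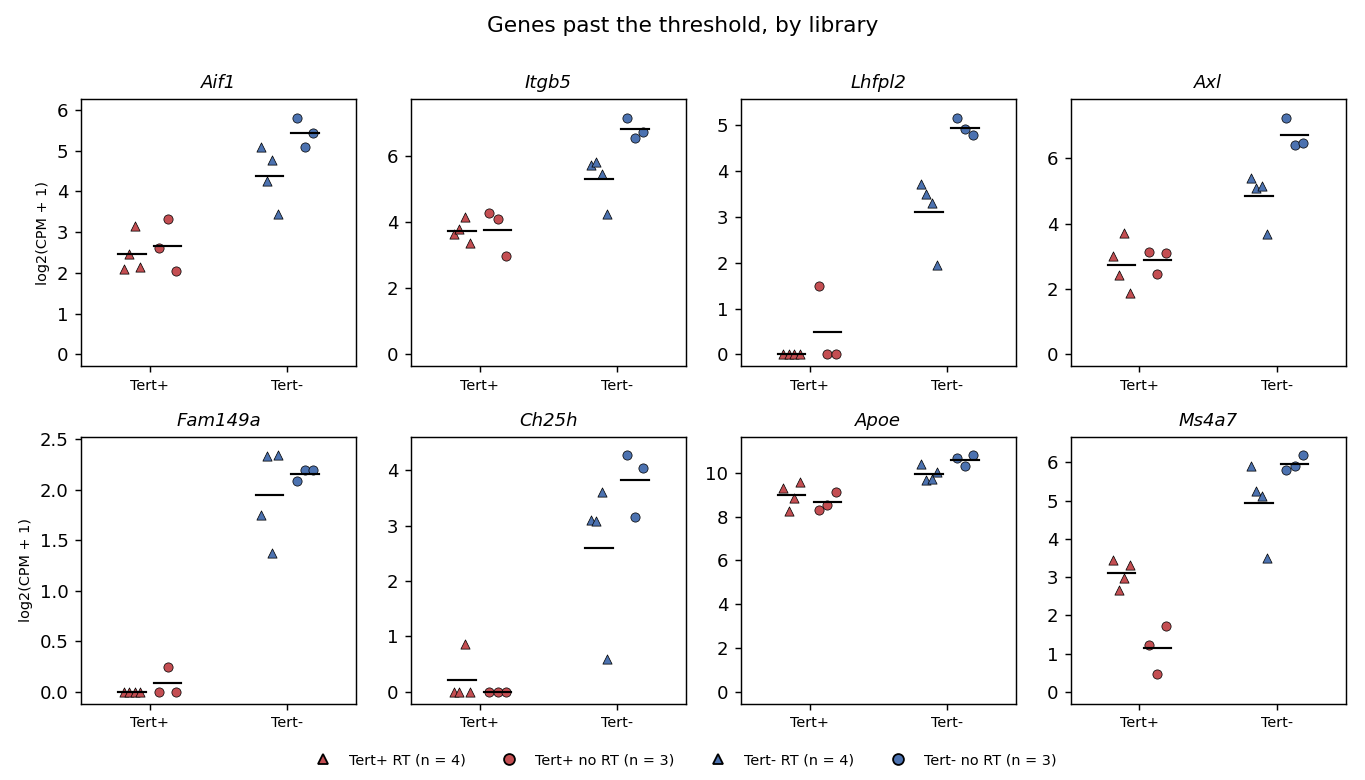
Level of 8 genes past the threshold in each library, as log2(CPM + 1), with Tert+ at the left and Tert- at the right of each panel, triangles for RT, circles for no RT and a bar at each group's mean. Tert+ points lie at or below the lowest Tert- point for Aif1, Lhfpl2, Fam149a, Apoe and Ms4a7.

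Library Tert- RT replicate 4 had the lowest level among the 7 Tert- libraries for 7 of the 9 genes and for 14 of 19 tested members of the macrophage complement and identity list, but for 9.06% of all genes tested. Its summed level of that list was 338 CPM, next to 884 to 1512 CPM in the other Tert- RT libraries and 181 to 384 CPM in the Tert+ libraries. The part of this library's make-up in the results was not tested beyond leaving it out, which gave the 30 genes lower and 0 higher named above.

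Without overlap between all 7 Tert+ and all 7 Tert- libraries, 32 genes were lower in Tert+ and 3 were higher, or 0.201% and 0.0189% of the genes tested. The 3 higher were H3f3a, a histone H3.3 gene, Vamp7, a vesicle fusion protein, and Polr2h, a subunit shared by RNA polymerases, named after their values were seen. H3f3a averaged 976 CPM in Tert+ and 767 CPM in Tert- libraries (log2 fold change 0.35, SE 0.0793, adjusted p = 0.105). Vamp7 and Polr2h had log2 fold changes of 0.64 and 0.38 and adjusted p-values of 0.322 and 0.516.

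The list of macrophage complement and identity genes held 24 genes, of which 19 were expressed highly enough to be tested and Cd5l, Vsig4, Folr2, Lyve1 and Siglec1 were not. Ms4a7 was the 1 member past the threshold. At an unadjusted p under 0.05, 14 of the 19 were lower and 0 higher, against 4.45% and 3.6% of all genes tested. In this list 18 of 19 had a negative fold change, against 7966 of all 15915 genes tested. Its members had a median log2 fold change of -2.48, against -0.000529 over all genes tested. Summed over the list, Tert+ libraries held 273, 221, 304 and 238 CPM after RT and 181, 384 and 238 CPM without RT. Tert- libraries held 1512, 913, 884 and 338 CPM after RT and 2837, 2033 and 2302 CPM without RT. Only Tert- RT replicate 4 came down to the Tert+ range. In sorted bulk samples, fewer cells of a type and less RNA per cell cannot be told apart.

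The 3 chains of C1q, which starts the classical complement pathway, stood next to each other in size of difference without passing the threshold. C1qa ran from 1.21 to 43.9 CPM in Tert+ (median 17.7) and from 62.5 to 445 CPM in Tert- libraries (median 275; log2 fold change -3.96, SE 0.823, adjusted p = 0.106). C1qb ran from 0.379 to 57.0 CPM in Tert+ (median 16.3) and from 75.1 to 446 CPM in Tert- libraries (median 299; log2 fold change -4.13, SE 0.93, adjusted p = 0.156). C1qc ran from 0.506 to 20.7 CPM in Tert+ (median 12.6) and from 42.5 to 356 CPM in Tert- libraries (median 209; log2 fold change -4.18, SE 0.741, adjusted p = 0.0677). None of the 3 chains overlapped between the populations, and within Tert+ no RT the chains were near 0 in replicates 2 and 3 but 13.4 to 21.6 CPM in replicate 1. The receptor Csf1r and Adgre1, the macrophage surface protein F4/80, averaged 59.6 and 7.80 CPM in Tert+ against 237 and 55.1 CPM in Tert- libraries (adjusted p = 0.0854 and 0.0612). Trem2, a lipid-sensing receptor, and Tmem119, a membrane protein of microglia, had log2 fold changes of -3.02 and -5.42 (adjusted p = 0.0612 and 0.0635), and both were picked with their values known. Of the 19 tested members, 15 had a negative fold change in both radiation states, against 28.5% of all genes tested. The 4 others were Maf, at 5.67 CPM in Tert+ and 4.97 CPM in Tert- libraries, the low Cd163 and Marco, and Cd14, a coreceptor for bacterial lipopolysaccharide. Cd14 averaged 51.1 CPM in Tert+ and 129 CPM in Tert- libraries (adjusted p over both states 0.914), and it was named after its values were seen. Its log2 fold changes were 0.94 after RT and -3.20 without RT. The Tert- mean leaned on 1 no RT library at 554 CPM, and the medians were 29.5 CPM in Tert+ and 65.1 CPM in Tert-. Tert- no RT libraries averaged 254 CPM with an SD of 260 CPM.

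A companion list of lysosomal, lipid and dying-cell clearance genes held 32 genes, of which 31 were tested. Past the threshold were 4 members, among them Itgb5, Axl and Apoe. At an unadjusted p under 0.05, 8 of the 31 were lower and 2 higher, against 4.45% and 3.6% of all genes tested. The median log2 fold change was -0.19. The general lysosomal genes moved little: Lamp1 averaged 363 CPM in Tert+ and 369 CPM in Tert- libraries, and the protease Ctsd 118 CPM in Tert+ and 120 CPM in Tert- libraries (adjusted p = 0.988 and 0.992). Granulin (Grn) and cathepsin L (Ctsl) were the 2 members with an unadjusted p under 0.05 and a positive fold change, 0.34 and 0.59 on the log2 scale (adjusted p = 0.563 and 0.544). These 4 genes were picked with their values known.

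**Figure D3:**
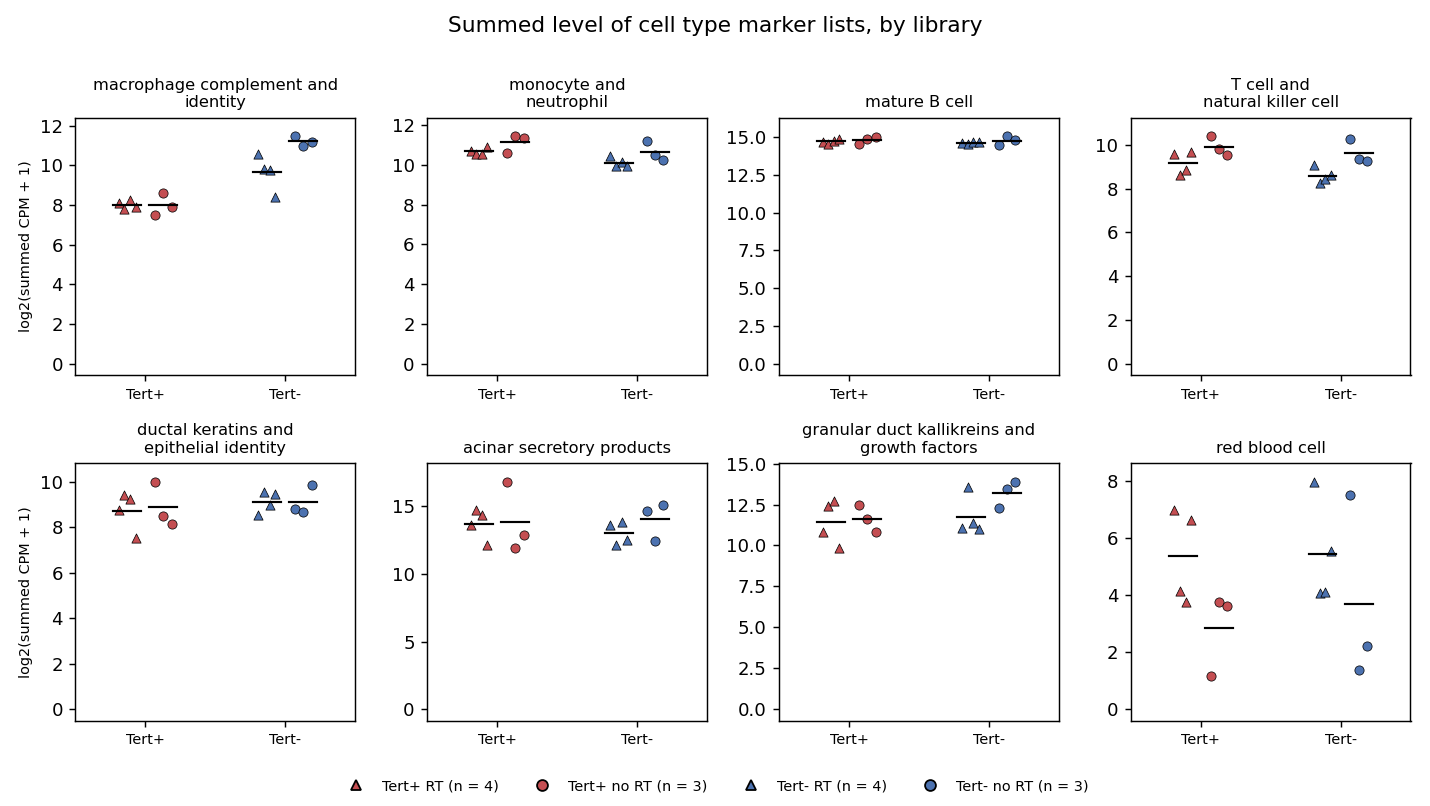
Summed level of 8 marker lists in each library, as log2(summed CPM + 1), with Tert+ at the left and Tert- at the right, triangles for RT, circles for no RT and a bar at each group's mean. The macrophage sums lie between 181 and 384 CPM in Tert+ and between 338 and 2837 CPM in Tert- libraries, while the B cell, T cell, keratin and acinar sums overlap widely.

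Genes of monocytes and neutrophils, which share the myeloid lineage with macrophages, did not follow them. Of 20 genes 18 were tested and 0 passed the threshold in either direction. At an unadjusted p under 0.05, 4 were higher and 0 lower, against 3.6% and 4.45% of all genes tested. A positive fold change was found in 16 of 18, against 7949 of all 15915 genes tested. The median log2 fold change was 1.02, or 1.30 after RT and -0.05 without RT. The neutrophil marker Ly6g was at 0 in 6 of 7 libraries of each population and was not tested. Ly6c2, a surface protein of inflammatory monocytes, stood at 70.1, 45.7, 46.8 and 70.2 CPM in Tert+ RT and 47.4, 94.0 and 41.0 CPM in Tert+ no RT libraries. It stood at 8.70, 9.86, 7.67 and 4.06 CPM in Tert- RT and 61.4, 23.1 and 17.2 CPM in Tert- no RT libraries. The populations were apart after RT and overlapped through 1 library, Tert- no RT replicate 1, without it (log2 fold change 2.02, SE 0.414, adjusted p = 0.0792). Without that library its adjusted p was 0.00953, and over the 24 alternatives it ran from 5.5e-05 to 0.432. Lyz2, lysozyme of myeloid cells, averaged 601 ± 509 CPM in Tert+ and 289 ± 228 CPM in Tert- libraries (mean ± SD over 7 libraries a population; adjusted p = 0.33).

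Among the 10 genes with the smallest p-values on the higher side, none of which passed, the nearest was Cyb561a3, a cytochrome b561 family protein of late endosomes and lysosomes. It ran from 307 to 452 CPM in Tert+ (median 327) and from 217 to 317 CPM in Tert- libraries (median 239), with an overlap at Tert- no RT replicate 2 (log2 fold change 0.54, SE 0.101, adjusted p = 0.0612). Its adjusted p fell below 0.05 in 6 of 24 alternatives, including limma voom (0.0375) and without Tert+ no RT replicate 1 (0.0202), and ran from 5.01e-05 to 0.177 over all of them. Cfp, properdin, which stabilises the alternative complement convertase, averaged 63.1 ± 28.4 CPM in Tert+ and 27.1 ± 18.1 CPM in Tert- libraries (mean ± SD over 7 libraries a population; adjusted p = 0.0685). Gsr, glutathione reductase, averaged 29.5 ± 12.9 CPM in Tert+ and 12.8 ± 13.8 CPM in Tert- libraries (mean ± SD over 7 libraries a population; adjusted p = 0.103), with 19.1 to 28.8 CPM in Tert+ RT and 2.21 to 5.95 CPM in Tert- RT libraries. The other 7 were Iglv2, an immunoglobulin lambda variable segment, Cmpk1, a nucleotide kinase, Smpdl3a, a sphingomyelinase-like phosphodiesterase, Serinc5, a membrane protein that restricts retroviruses, Mtm1, a phosphoinositide phosphatase, Atxn10 and the monocyte gene Ly6c2 given above. Their log2 fold changes apart from Ly6c2 ran from 0.50 for Cmpk1 to 1.06 for Iglv2. The nearest misses on the lower side were Zmynd15, a zinc finger protein, and Lpcat2, an enzyme of phospholipid remodelling. Zmynd15 averaged 0.875 CPM in Tert+ and 18.5 CPM in Tert- libraries (log2 fold change -4.11, adjusted p = 0.0593), and Lpcat2 17.3 CPM in Tert+ and 49.7 CPM in Tert- libraries (log2 fold change -1.43, adjusted p = 0.0612).

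The additive term assumes 1 population difference in both radiation states, and the interaction of population and radiation tested that. It passed the threshold for 0 genes in edgeR and limma voom and for 12 in DESeq2, with 578 genes, 3.63% of those tested, at an unadjusted p under 0.05 in edgeR. All 9 genes were lower in Tert+ in both states, as were 28.5% of all genes tested, but choosing the 9 on both states together nearly fixes that sign. Of the 9, Ms4a7 had the smallest interaction p, and its log2 fold change was -2.17 after RT and -5.54 without RT (interaction unadjusted p = 0.000372, adjusted p = 1, with an adjusted p of 0.0146 in DESeq2). Axl and Itgb5 had log2 fold changes of -2.22 and -1.75 after RT and -4.03 and -3.04 without RT (interaction unadjusted p = 0.0144 and 0.0264). Sema3b, a secreted guidance protein, and Pls3, an actin bundling protein, had the other smallest interaction p-values and opposite signs in the states, Sema3b at -8.65 after RT and 3.53 without RT and Pls3 at 0.93 after RT and -2.67 without RT.

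**Figure D4:**
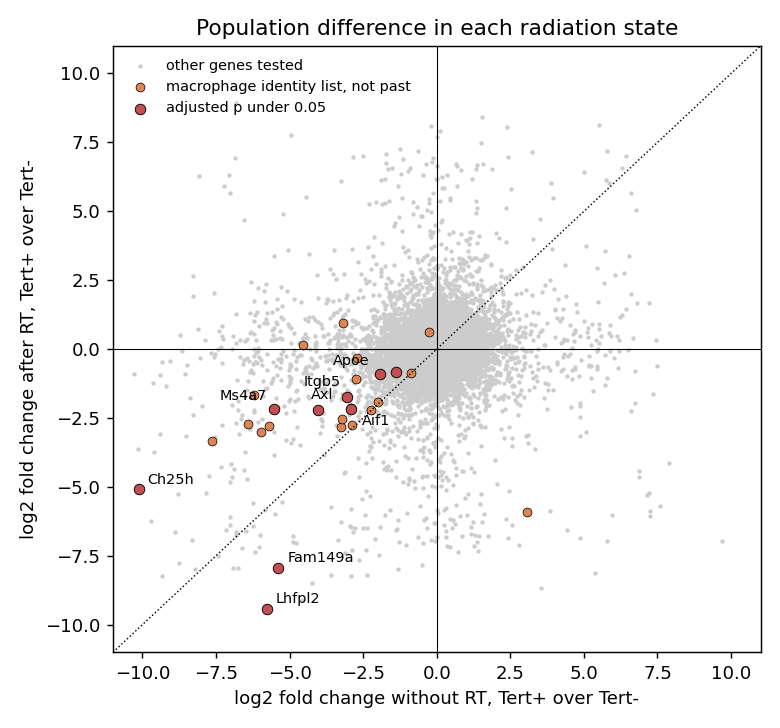
Log2 fold change of Tert+ over Tert- after RT (vertical axis) against that without RT (horizontal axis) for the 15915 genes tested, with a dotted line of equality. The 9 genes past the threshold lie in the lower left quadrant, and Lhfpl2 and Fam149a are the 2 of them below the line.

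Since different libraries make up the radiation states, the states could be set side by side, though they share the fit's estimate of spread. Of 6 genes past the threshold without RT, 6 were lower after RT with an unadjusted p under 0.05. Genes lower at an unadjusted p under 0.05 numbered 604 after RT and 487 without RT, and 106 were in both lists. These 106 were 21.8% of those without RT, beside 3.8% of all genes tested lower after RT. They were 17.5% of those after RT, beside 487 of all 15915 genes tested lower without RT. Genes higher at that p numbered 572 after RT and 229 without RT, with 33 in both. These 33 were 14.4% of those without RT, beside 3.59% of all genes tested higher after RT. They were 5.77% of those after RT, beside 229 of all 15915 genes tested higher without RT. P2ry6, a receptor for extracellular uridine diphosphate, was 0.261, 0, 0 and 0 CPM in Tert+ RT libraries and 23.0, 16.2, 17.7 and 1.47 CPM in Tert- RT libraries. It stood at 8.55, 4.36 and 8.20 CPM in Tert+ no RT and 45.9, 31.2 and 34.5 CPM in Tert- no RT libraries, and did not pass over both states (log2 fold change -4.27, SE 0.811, adjusted p = 0.0618). Gatm, the first enzyme of creatine synthesis, averaged 1.29 CPM in Tert+ RT and 23.6 CPM in Tert- RT libraries, and 18.3 CPM in Tert+ no RT and 58.5 CPM in Tert- no RT libraries (adjusted p = 0.0854). Gpatch1, a splicing factor, had log2 fold changes of -1.55 after RT and 0.21 without RT (adjusted p over both states 0.511).

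Tert (ENSMUSG00000021611, chromosome 13, 73626911 to 73649843), which carries the Cre, did not separate the populations. It had 0, 52, 34 and 15 reads in Tert+ RT, 0, 7 and 8 in Tert+ no RT, 0, 0, 9 and 15 in Tert- RT and 22, 28 and 13 in Tert- no RT libraries. It averaged 2.20 ± 3.18 CPM in Tert+ and 1.13 ± 0.877 CPM in Tert- libraries (mean ± SD over 7 libraries a population; exact two-sided permutation p = 0.551 over 1400 relabellings within radiation states, where the smallest possible is 0.00143). The sign of the mean difference rested on Tert+ RT replicate 2: without it the difference was -0.054 CPM (exact permutation p = 0.95).

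Tert+ libraries held 5986984 to 15943597 counts in total and Tert- libraries 5520412 to 13454637. Read per kilobase of gene, the B cell gene Cd79a averaged 2151 CPM per kb in Tert+ and 1890 CPM per kb in Tert- libraries. Epcam, the protein of the sort gate, averaged 29.7 CPM per kb in Tert+ and 29.1 CPM per kb in Tert- libraries, and the keratin Krt18 averaged 67.7 CPM per kb in Tert+ and 74.1 CPM per kb in Tert- libraries. The level of this B cell gene per kilobase therefore stood above those of Epcam and Krt18 in each population, against the epithelial gate of the labels. By mean, it did not stand above those of all gland genes. Tissue kallikrein Klk1 averaged 2153 CPM per kb in Tert+ and 4493 CPM per kb in Tert- libraries. The secretory genes Mucl2 and Dcpp3 averaged 12027 and 8157 CPM per kb in Tert+ and 3638 and 5592 CPM per kb in Tert- libraries. Medians, not divided by length, were 920 CPM in Tert+ and 900 CPM in Tert- for Mucl2 (1046 bases). They were 1625 and 3209 CPM for Klk1 (1077 bases) and 2640 and 1868 CPM for Dcpp3 (610 bases). Those of Cd79a (1457 bases) were 3045 and 2582 CPM, so by median Mucl2 stood below Cd79a. The kallikrein Klk1b26 stood below Cd79a, at 373 CPM per kb in Tert+ and 673 CPM per kb in Tert- libraries. Of the defining markers of each cell type, the fibroblast receptor Pdgfra was at 0 in all 14 libraries. The file headers number the libraries, and RT libraries carry the higher numbers. What the number stands for is not given in the sources used here, and each state holds both populations.

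Lists of the other cell types in the gland and gate had 0 genes past the threshold in either direction. For the counts that follow, 4.45% of all genes tested were lower and 3.6% higher at an unadjusted p under 0.05. Mature B cell genes summed to between 23786 and 32889 CPM in Tert+ and between 22698 and 34095 CPM in Tert- libraries, and Cd79a, a chain of the B cell receptor complex, averaged 3134 ± 474 CPM in Tert+ and 2754 ± 626 CPM in Tert- libraries (mean ± SD over 7 libraries a population; adjusted p = 0.766). At an unadjusted p under 0.05, 1 of its 20 members was lower and 1 higher. Plasma cell genes had 6 of 13 tested members higher and 1 lower at that p, with a median log2 fold change of 0.29. Tnfrsf13b, the receptor TACI, averaged 425 CPM in Tert+ and 354 CPM in Tert- libraries, and Cd38, an ectoenzyme, 316 CPM in Tert+ and 280 CPM in Tert- libraries (adjusted p = 0.762 and 0.784). T cell and natural killer genes had 2 of 24 higher and 0 lower, germinal centre B cell genes 3 of 17 higher and 0 lower, and dendritic cell genes 2 of 16 higher and 1 lower. The germinal centre list changed sign between the states, with a median log2 fold change of -0.20 after RT and 0.76 without RT. After RT it summed to between 972 and 1079 CPM in Tert+ and between 1142 and 1330 CPM in Tert- libraries. Without RT it summed to between 1611 and 1795 CPM in Tert+ and between 1267 and 1416 CPM in Tert- libraries. Cd2, an adhesion protein of T cells, averaged 268 CPM in Tert+ and 200 CPM in Tert- libraries (adjusted p = 0.295), and Irf8, a transcription factor of dendritic and B cells, 799 CPM in Tert+ and 731 CPM in Tert- libraries (adjusted p = 0.898). Class II antigen presentation had 1 of 12 members lower and 2 higher at that p: Cd74, the invariant chain, averaged 26673 CPM in Tert+ and 27644 CPM in Tert- libraries (adjusted p = 0.958).

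Epithelial lists overlapped widely between the populations. Beside their counts, 4.45% of all genes tested were lower and 3.6% higher at an unadjusted p under 0.05, and 7966 were lower and 7949 higher by sign. Acinar secretory products had 0 of 19 tested members at an unadjusted p under 0.05, with a median log2 fold change of 0.46, and the mucin-like Mucl2 averaged 12580 ± 30527 CPM in Tert+ and 3805 ± 5853 CPM in Tert- libraries (mean ± SD over 7 libraries a population; adjusted p = 0.822). That mean rested on 1 library, Tert+ no RT replicate 1, at 81797 CPM. Without it Mucl2 averaged 1044 CPM in Tert+ and 3805 CPM in Tert- libraries, and the acinar median was -0.22. Granular duct kallikreins and growth factors had 17 of 18 tested members with a negative fold change and 0 at an unadjusted p under 0.05, and their median was 0.08 after RT and -1.93 without RT. Klk1, tissue kallikrein, averaged 2318 ± 1745 CPM in Tert+ and 4839 ± 4362 CPM in Tert- libraries (adjusted p = 0.783). Kallikrein genes have close copies, and how shared reads were counted is not given in the sources used here. Ductal keratins had 1 of 21 members lower and 0 higher at that p, and Krt18 averaged 97.4 CPM in Tert+ and 106 CPM in Tert- libraries (adjusted p = 0.967). Myoepithelial genes had 0 of 8 at that p, endothelial genes 2 of 9 lower, fibroblast and pericyte genes 1 of 7 lower and red blood cell genes 1 of 5 lower, and 0 were higher in these lists. Salivary progenitor genes had 1 of 16 higher and 0 lower, with the surface proteins Cd24a at 327 CPM in Tert+ and 299 CPM in Tert- and Ly6a at 253 CPM in Tert+ and 233 CPM in Tert- libraries (adjusted p = 0.884 and 0.94).

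Signalling and stress lists had 0 genes past the threshold as well, and the shares of all genes at an unadjusted p under 0.05 were 4.45% lower and 3.6% higher. Inflammatory cytokines and chemokines had 8 of 24 members lower and 0 higher at an unadjusted p under 0.05, and a median log2 fold change of -1.18 that was -0.38 after RT and -2.89 without RT. Of them the chemokine Ccl4 averaged 34.8 ± 23.9 CPM in Tert+ and 67.4 ± 94.6 CPM in Tert- libraries (mean ± SD over 7 libraries a population; adjusted p = 0.895) and Tgfb1 71.4 CPM in Tert+ and 87.2 CPM in Tert- libraries (adjusted p = 0.753). One library stood apart: the list summed to 1473 CPM in Tert- no RT replicate 1, next to 212 and 241 CPM in the other Tert- no RT libraries and 122 to 204 CPM in Tert+ no RT libraries. Without that library the list's median was -0.62, and Ccl4 averaged 34.8 CPM in Tert+ and 31.8 CPM in Tert- libraries. Macrophages make many of these cytokines, and the macrophage sums given above moved in the same direction; their part in the cytokine values was not tested. Immediate early genes had 8 of 27 lower and 0 higher, with Nr4a1, an orphan nuclear receptor, at 1231 ± 417 CPM in Tert+ and 1608 ± 516 CPM in Tert- libraries (adjusted p = 0.746). NF-kB signalling had 5 of 20 lower and 0 higher, with the subunit Rel at 1111 ± 418 CPM in Tert+ and 1485 ± 597 CPM in Tert- libraries (adjusted p = 0.583). Notch pathway genes had 3 of 14 lower and 0 higher, among them Dtx1, a ubiquitin ligase of the pathway, at 71.4 ± 17.3 CPM in Tert+ and 126 ± 37.2 CPM in Tert- libraries (adjusted p = 0.118). Wnt pathway genes had 3 of 20 lower and 1 higher, with Myc, a target of the pathway, at 589 CPM in Tert+ and 764 CPM in Tert- libraries (adjusted p = 0.486). P2Y and related nucleotide receptors had 2 of 10 lower and 0 higher, with P2ry10 at 204 CPM in Tert+ and 190 CPM in Tert- libraries (adjusted p = 0.948).

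Growth and metabolic lists differed among themselves in sign, with 0 genes past the threshold. Of all genes tested, 7966 were lower and 7949 higher by sign, and 4.45% were lower and 3.6% higher at an unadjusted p under 0.05. DNA replication and cell cycle genes had 6 of 41 higher and 0 lower at an unadjusted p under 0.05 and 31 of 41 with a positive fold change, with a median of 0.31 on the log2 scale. Of the D-type cyclins, Ccnd2 averaged 160 CPM in Tert+ and 103 CPM in Tert- libraries, and Ccnd3 176 CPM in Tert+ and 145 CPM in Tert- libraries (adjusted p = 0.185 and 0.535). Nuclear encoded respiratory chain genes had 36 of 37 with a positive fold change, a median of 0.15, and 3 higher and 0 lower at an unadjusted p under 0.05, with Atp5b, a subunit of ATP synthase, at 1425 CPM in Tert+ and 1323 CPM in Tert- libraries (adjusted p = 0.858). Mitochondrially encoded genes had 14 of 15 with a negative fold change, a median of -0.37, and 3 lower and 0 higher at that p, with mt-Co1, a subunit of cytochrome oxidase, at 5812 CPM in Tert+ and 6796 CPM in Tert- libraries (adjusted p = 0.797). Telomerase and shelterin genes had 3 of 19 lower and 0 higher, p53 targets 3 of 30 lower and 0 higher, DNA damage response and repair genes 0 of 30 lower and 1 higher, and interferon response genes 1 of 24 lower and 1 higher. The p53 target Btg2 averaged 840 CPM in Tert+ and 821 CPM in Tert- libraries, and the repair protein Parp1 485 CPM in Tert+ and 467 CPM in Tert- libraries (adjusted p = 0.981 and 0.939). Unfolded protein response genes had 1 of 26 higher, cholesterol synthesis genes 1 of 21 lower, glutathione and NRF2 target genes 2 of 26 higher and Ly6 surface proteins 2 of 8 higher, each with 0 in the other direction. Hspa5, an endoplasmic reticulum chaperone, averaged 1258 CPM in Tert+ and 1343 CPM in Tert- libraries, and Gpx1, glutathione peroxidase, 686 CPM in Tert+ and 596 CPM in Tert- libraries (adjusted p = 0.924 and 0.784).

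**Figure D5:**
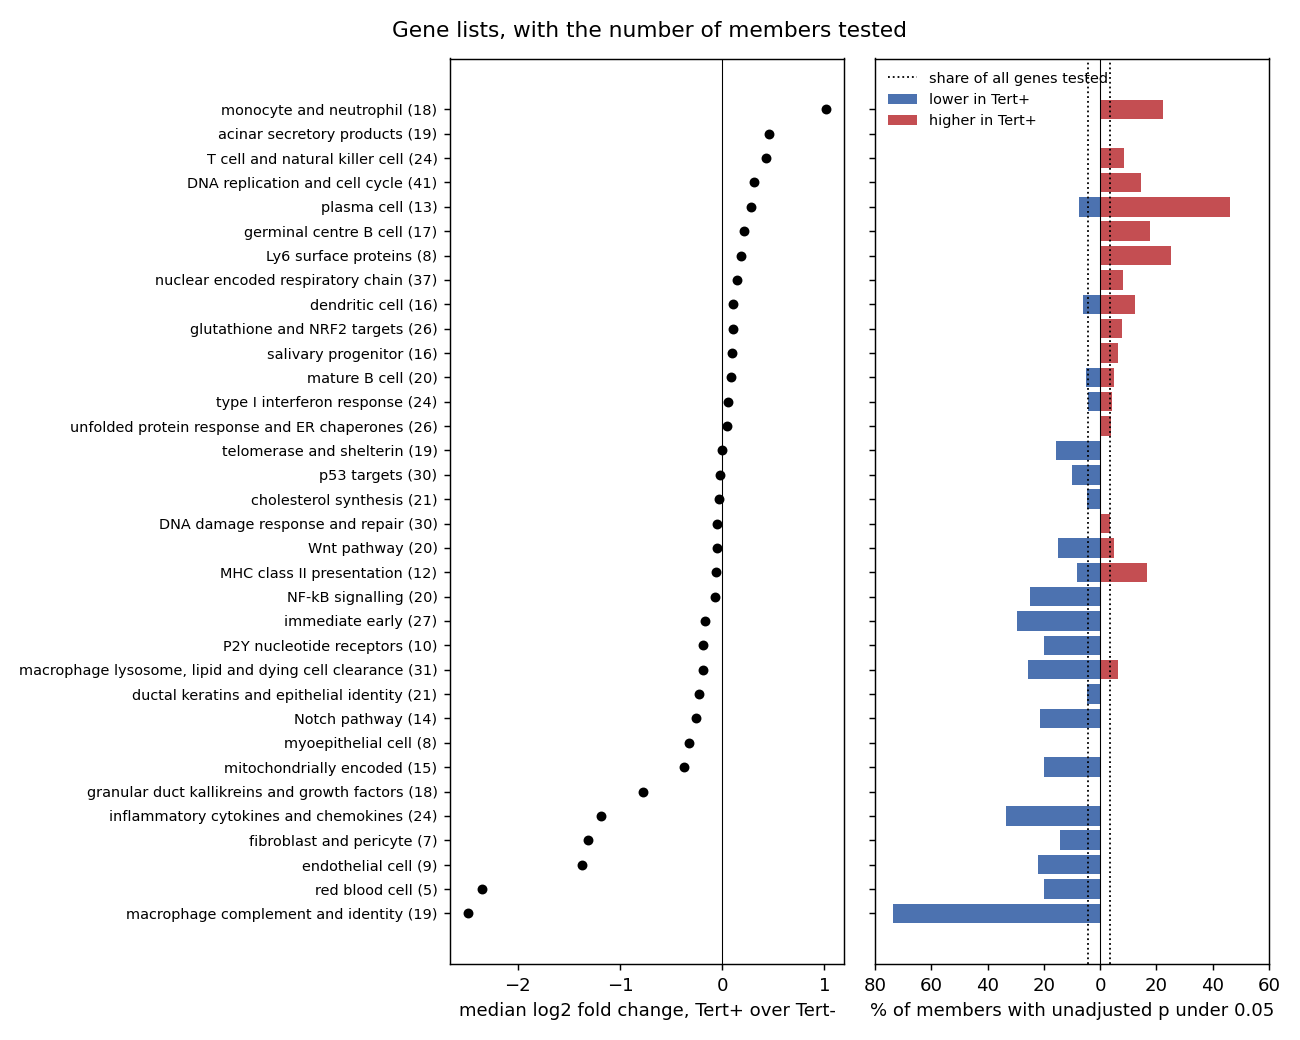
Median log2 fold change of Tert+ over Tert- for each of the 34 gene lists (left) and the share of each list's tested members with an unadjusted p under 0.05 (right, lower in blue to the left of 0, higher in red), with dotted lines at 4.45% and 3.6%, the shares of all genes tested. Macrophage complement and identity genes have the lowest median, -2.48, and monocyte and neutrophil genes the highest, 1.02.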

How the data were processed

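RNA of 14 sorted-cell libraries was sequenced by the authors. The deposited table holds whole-number read counts per gene, not normalised, 1 column per library, with each gene's mm10 position and length in bases per the file headers. HISAT2 and mm10 come from the submitters' processing notes, and the counting program, its annotation and its use of strand are not given in the sources used here. Libraries were made from 1 ng of RNA with a protocol credited to Picelli, per the labels' protocols. Every row names a gene, no pair of libraries held identical counts, and no per-sample column was left out.

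In R 4.3.3, edgeR 4.0.16 filtered genes with filterByExpr on the 4 groups (minimum count 10), which kept 15915, and scaled them with TMM. The model held population plus radiation, over all 14 libraries, and dispersions were robust. Two-sided quasi-likelihood F tests gave p-values adjusted over all genes tested (Benjamini-Hochberg, threshold 0.05). Log2 fold changes are Tert+ over Tert-. The interaction and the differences within each state came from fits over the same libraries. CPM are TMM-scaled, and CPM per kb divide by the gene length. Tert was also compared by exact permutation within radiation states. DESeq2 1.42.0, limma 3.58.1 (voom), other filters, scalings and models, and the removal of each library in turn were alternatives. The edgeR fits of population and of the interaction, DESeq2 and limma voom were tried on simulated counts.

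Members, the 34 lists of genes and the naming rule were chosen with earlier results of these data known. Named were Tert, genes past the threshold with an average log2 CPM of at least 1 and 1 sign in both states (up to 12 per direction, by log2 fold change, filled to 10 by smallest p), per list up to 4 members past it or the 2 most expressed, the 3 smallest interaction p-values, and genes an earlier analysis had named. Predicted genes were not named. Some genes that the rule names are not reported here. Lists were not tested. Promoters were RefSeq windows of GRCm38.p6, the build also called mm10. How reads of near-identical genes (kallikreins, immunoglobulins, Ly6 genes) were split is not known, so their values are less certain.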

Additional observations from a re-analysis of the deposited data

Results flagged for a closer look

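Values were flagged where, in a group of 4 libraries, the highest or lowest stood apart from the other 3 by Dixon's criterion at the 95% level. Of 256 such groups tested, 20 were flagged, and chance flags about 1 in 20 where values are normally distributed. Where 3 of the 4 libraries are at 0, as for Ch25h and P2ry6 below, any read in the remaining library is flagged.

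In Tert+ RT libraries, Ch25h was 0.819 CPM in replicate 3 and 0 in the others, and Gatm was 4.09 CPM in replicate 3 and at most 0.513 CPM elsewhere. P2ry6 was 0.261 CPM in replicate 1 and 0 in the others, and Kdr, an endothelial receptor, was 7.41 CPM in replicate 1 and at most 1.03 CPM elsewhere. Ighm was low in replicate 2 at 5350 CPM, the others lying between 6074 and 6169 CPM. Replicate 4 was high for Gpx1 at 642 CPM, for Ly6e at 1194 CPM and for the summed glutathione and NRF2 list at 3107 CPM, the others reaching 525, 1020.5 and 2729 CPM.

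In Tert- RT libraries, replicate 4 was low for Lpcat2 at 18.4 CPM, Cd79a at 2146 CPM, Ly6a at 172 CPM and the summed interferon list at 945 CPM, the others starting at 36.5, 2557, 279 and 1424 CPM. Replicate 2 was high for Klk1 at 8182 CPM, for the summed granular duct list at 12375 CPM and for the collagen Col3a1 at 7.39 CPM, the others reaching 1938, 2613 and 0.907 CPM. Replicate 1 was high for Lyz2 at 256 CPM, Hba-a2 at 35.4 CPM and the summed red blood cell list at 249 CPM, the others reaching 107, 5.44 and 45.6 CPM, and low for Rel at 1610 CPM, the others starting at 1956 CPM. Replicate 3 was low for Ctnnb1 at 58.5 CPM, the others starting at 85.5 CPM.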

How the results depend on the processing

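The 9 genes past the threshold were lower in Tert+ under all 24 alternatives. The count lower in Tert+ was 24 with no filter on low counts, 112 with DESeq2, 32 with limma voom, 33 with 1 term per group and 19 without both Tert+ RT replicates 3 and 4, and ran from 6 to 30 when single libraries were left out (30 without Tert- RT replicate 4). The count higher in Tert+, 0 in the report, was 3 with no filter, 1 with a minimum count of 30, 41 with DESeq2, 3 with limma voom and 2 with 1 term per group, and ran from 0 to 5 in the leave-one-out fits. DESeq2 size factors in edgeR gave 9 lower and 0 higher, and the fits with no radiation term and with dispersions not robust each gave 11 lower and 0 higher. Of the 9 genes, DESeq2 and the fit with 1 term per group called 9 and limma voom 7. Of the 19 tested macrophage identity genes they called 10, 8 and 6 in that order. The interaction passed for 12 genes with DESeq2, and for 0 to 1 gene in the leave-one-out fits (1 without Tert+ no RT replicate 1). The Tert difference, 0.75 CPM, ran from -0.054 CPM without Tert+ RT replicate 2, its 1 change of sign, to 1.34 CPM (exact permutation). The cause of these changes was not tested.

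The labels do not say whether same-numbered Tert+ and Tert- libraries share an animal, and the file headers give them consecutive library numbers. The correlation of their deviations ran from -0.0491 to 0.119, with 2 of 7 over 0.1, and 4 of 7 pairs matched best by number. With same-numbered libraries as a replicate block the count was 10 lower and 5 higher, with 7 of the 9 genes among them. The interaction count was 0, and the Tert difference 0.75 CPM (exact permutation p = 0.688). Depth limits Tert, whose reads were few in both populations, and the size of the falls of Lhfpl2, Fam149a and Ch25h, whose reads were few or 0 in Tert+ libraries.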

Other observations

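Among the 32 genes whose Tert+ libraries all lay below all Tert- libraries were several that the lists did not hold, named here after their values were seen. Ptgs1, a cyclooxygenase, averaged 0.494 CPM in Tert+ and 15.2 CPM in Tert- libraries (edgeR adjusted p = 0.0792). Olfml3, a secreted glycoprotein, averaged 2.77 CPM in Tert+ and 25.1 CPM in Tert- libraries (edgeR adjusted p = 0.0855). Cyp27a1, a sterol hydroxylase, averaged 5.35 CPM in Tert+ and 17.4 CPM in Tert- libraries (edgeR adjusted p = 0.0923). Col14a1, a fibril-associated collagen, averaged 0.32 CPM in Tert+ and 10.2 CPM in Tert- libraries (edgeR adjusted p = 0.076).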
